A study of Mus musculus with 22 samples.

Results

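The 39 genes described here form a set of interferon-stimulated genes, chosen by name from the 54532 genes of the deposited table, and all 39 had counts high enough to be tested. They were measured in whole lungs of young male C57BL6/j mice after 8 days in normoxia or hypoxia, with either vehicle or ABT-263 given at 50 mg/kg/day. ABT-263 (navitoclax) inhibits anti-apoptotic proteins of the BCL-2 family and is named in the series text as a senolytic, a drug that removes senescent cells. The groups, taken from the sample titles, were normoxia with vehicle (5 libraries, the control), normoxia with ABT-263 (6 libraries), hypoxia with vehicle (6 libraries) and hypoxia with ABT-263 (5 libraries). The labels name no gene edit or transgene in any group, and the oxygen fraction, the vehicle and the route of dosing were not given in the sources used here. In 3 libraries, replicate 1 of each group other than the control, the treatment tag named the other treatment. The labels do not state that each library came from a separate animal, so p-values measure the spread between these libraries.

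Interferons are secreted proteins that warn cells of infection. Type I interferons (alpha and beta) signal through the kinases JAK1 and TYK2 to a complex that contains STAT2 and IRF9 and binds a promoter element called the ISRE, whereas interferon gamma acts mainly through an element called the GAS. In lung, where airway and alveolar cells face inhaled viruses, the induced genes encode RNA sensors, inhibitors of viral replication, GTPases that attack intracellular pathogens, parts of the antigen-presentation machinery and chemokines that draw T cells.

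The libraries held 11509016 to 15744202 counts each. Markers of lung epithelium were abundant in all of them, with summed levels of 71784 to 132280 CPM (a library's counts scaled to a common total), and none of these 8 markers was at 0 in any library. Haemoglobin genes took 0.343% to 0.698% of counts in normoxia and 0.880% to 1.44% in hypoxia, without overlap. The first principal component of log2 CPM (29.4% of variance) separated the oxygen conditions, and on the second (11.5%) replicates 2 and 6 of normoxia with ABT-263 scored 22.3 and 27.2, against -22.5 to 15.7 for the other normoxia libraries. On the same component replicates 4 and 5 of hypoxia with ABT-263 scored 35.5 and 20.5, and replicate 6 of hypoxia with vehicle -28.3. In whole-lung RNA, fewer cells of a type and less RNA per cell cannot be told apart.

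Promoter windows were read from RefSeq (GRCm38.p6) to show which members carry the elements that interferon signalling uses. A window was found for 29 of the 39 members. In the 250 bases before the transcription start, the ISRE core (GAAA, any 2 bases, GAAA), searched on both strands like the other motifs, was present in 15 of 33 member windows (45.5%), compared with 978 of 32851 windows of all genes (2.98%). The GAS core TTCNNNGAA was present in 5 of 33 member windows (15.2%) and in 7.02% of all windows. The hypoxia response cores ACGTG and GCGTG were present in 6.06% and 27.3% of member windows, and in 16.6% and 28.2% of all windows. Short windows around the first ISRE match are given for members with different behaviour in the libraries, with the ISRE letters in capitals, written 5′ to 3′ in the direction of the gene. Capitals that start with TTTC are the same element on the other strand.
Isg15, chr4:156200875-156200908, minus strand: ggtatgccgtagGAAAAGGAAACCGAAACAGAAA
Ifit1, chr19:34640773-34640806, plus strand: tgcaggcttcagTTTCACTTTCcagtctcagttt
Ifit3, chr19:34583361-34583394, plus strand: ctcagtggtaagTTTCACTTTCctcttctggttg
Ifit3b, chr19:34607757-34607790, plus strand: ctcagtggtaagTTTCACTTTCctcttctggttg
Oas1a, chr5:120907526-120907557, minus strand: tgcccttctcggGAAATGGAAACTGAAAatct
Oas3, chr5:120777713-120777746, minus strand: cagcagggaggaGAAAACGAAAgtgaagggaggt
Stat2, chr10:128270264-128270297, plus strand: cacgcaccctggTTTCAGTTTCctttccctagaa
Cxcl10, chr5:92349081-92349114, minus strand: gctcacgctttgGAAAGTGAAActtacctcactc
The Isg15 window held 3 overlapping matches and the Oas1a window 2. The windows of Ifit3 and Ifit3b were identical, and these neighbouring genes are copies whose reads the counting could divide, so their separate levels are uncertain.

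Across the 39 genes, hypoxia was followed by changes in both directions. With vehicle, 7 members passed the test (2 higher, 5 lower), which is 17.9% of members, against 26.3% of all 16638 genes tested. The median log2 fold change was -0.06 over members (26 of 39 negative) and -0.00 over all genes, and without replicate 4 of normoxia with vehicle the members' median was 0.02 with 18 negative. With ABT-263, 12 members passed (10 higher, 2 lower), which is 30.8%, against 39.2% of all genes, and the median was 0.15 over members (15 of 39 negative) and -0.02 over all genes. That members' median was -0.00 with 20 negative without replicate 2 of hypoxia with ABT-263, 0.06 without replicate 4 of normoxia with ABT-263, and 0.26 without replicate 2 of normoxia with ABT-263, where 14 members passed. Higher calls made up 25.6% of members and 17.9% of all genes in that comparison, and lower calls 5.13% and 21.3%. Only Rsad2, Psmb9 and Oas3 passed in both hypoxia comparisons, each in the same direction, and 21 of the 39 members passed in none of the 7 comparisons made. The heat map of fold changes shows these calls by role.

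**Figure D1:**
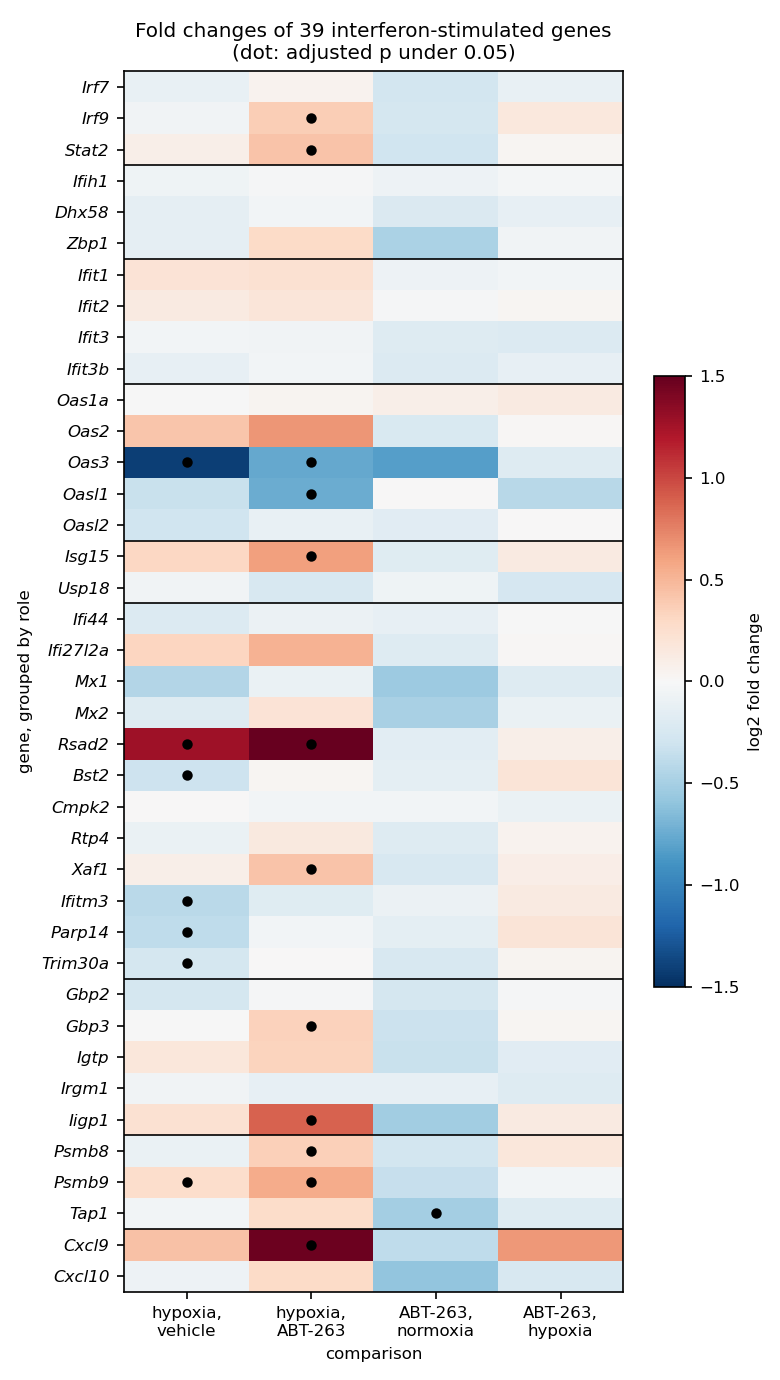
Log2 fold change of each of the 39 genes (rows, grouped by role) in 4 comparisons (columns), with colour from -1.5 to 1.5 and a dot where the adjusted p was under 0.05. Rsad2 (1.27 and 1.51) and Oas3 (-1.41 and -0.77) are among the largest hypoxia differences and have opposite signs, and 37 of 39 genes are negative for ABT-263 in normoxia although only Tap1 passed there.

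Levels per length were compared between genes as CPM per kilobase of annotated exon. In normoxia with vehicle the most abundant members by this scale were Ifitm3 (467 ± 68.5, SD, n = 5), a membrane protein that blocks viral fusion, Ifi27l2a (161 ± 45.5), and Bst2 (121 ± 13.5), which tethers budding virions. Ifi27l2a and Bst2 did not differ beyond their spread. The lowest were Cxcl9 (0.254 ± 0.0722), Oas3 (0.524 ± 0.267), Irgm1 (0.657 ± 0.0515) and Cxcl10 (0.742 ± 0.305), of which Oas3, Irgm1 and Cxcl10 did not differ beyond their spread. The annotation used for the counting was not given in the sources used here, so the Irgm1 count may not cover its whole locus, and its level and rank are uncertain. Counts of single members ran from 3 to 5460 per library, and 2 members fell below 10 counts in some library, which limits their precision.

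Of the 3 transcription factors in the set, Stat2 and Irf9, subunits of the complex that binds the ISRE, rose with hypoxia in ABT-263-treated lungs. Stat2 levels were 41.5, 46.7, 55.3, 60.6 and 49.3 CPM in normoxia with vehicle and ran from 34.6 to 49.7 CPM (median 39.8) in normoxia with ABT-263. In hypoxia, Stat2 ran from 47.0 to 66.0 CPM (median 51.5) with vehicle and was 53.6, 65.2, 60.4, 49.5 and 47.0 CPM with ABT-263. The groups overlapped in both hypoxia comparisons, and the lowest group was normoxia with ABT-263. The log2 fold change of Stat2 with hypoxia was 0.09 ± 0.11 (SE) with vehicle (adjusted p = 0.577) and 0.43 ± 0.11 with ABT-263 (adjusted p = 0.00359).
Irf9 levels were 52.9, 62.8, 60.6, 74.3 and 62.2 CPM in normoxia with vehicle and 43.4 to 66.9 CPM (median 50.4) in normoxia with ABT-263. Hypoxia gave 54.1 to 66.8 CPM (median 61.3) with vehicle and 61.3, 82.1, 65.5, 59.9 and 67.7 CPM with ABT-263. Its log2 fold change with hypoxia was -0.05 ± 0.10 with vehicle (adjusted p = 0.757) and 0.36 ± 0.10 with ABT-263 (adjusted p = 0.00588). Irf7, the factor that amplifies type I interferon production and is itself strongly interferon-inducible, did not pass, with log2 fold changes of -0.11 ± 0.18 and 0.05 ± 0.18. Its levels were 20.7, 26.8, 25.4, 42.1 and 27.0 CPM in the control group, 17.8 to 35.5 (median 20.9) in normoxia with ABT-263, 21.4 to 34.1 (median 25.3) in hypoxia with vehicle, and 26.6, 31.9, 23.4, 20.1 and 20.2 CPM in hypoxia with ABT-263. All 4 groups of Irf7 overlapped.

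None of the 3 nucleic-acid sensors passed in either hypoxia comparison (edgeR, 0 at an unadjusted p under 0.05). Ifih1 (MDA5), which detects long double-stranded RNA, was the steadiest member, with a within-group SD of 0.10 on the log2 scale and differences of -0.06 ± 0.07 and -0.02 ± 0.07 (vehicle, then ABT-263). Dhx58 (LGP2), a helicase that regulates such sensing, differed by -0.14 ± 0.16 and -0.04 ± 0.16. Zbp1, a sensor of Z-form nucleic acid that can start necroptosis, differed by -0.14 ± 0.19 and 0.28 ± 0.20.

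The 4 IFIT genes, which encode proteins that bind foreign RNA and block its translation, did not pass in any comparison. Ifit1 levels were 17.5, 24.2, 18.5, 27.0 and 23.8 CPM in normoxia with vehicle and 17.0 to 28.9 CPM (median 19.5) in normoxia with ABT-263. In hypoxia the Ifit1 range was 16.9 to 38.4 CPM (median 22.9) with vehicle, and the ABT-263 libraries read 19.7, 36.4, 17.8, 24.4 and 26.2 CPM. All groups overlapped, and the log2 differences of 0.21 ± 0.21 and 0.23 ± 0.22 were about as large as their errors. Ifit3 levels were 53.6, 60.6, 52.6, 68.3 and 61.6 CPM in the control group, 43.1 to 66.5 (median 50.8) in normoxia with ABT-263, 46.6 to 79.5 (median 55.3) in hypoxia with vehicle, and 54.6, 64.5, 37.4, 47.3 and 47.6 CPM in hypoxia with ABT-263. Its hypoxia differences were -0.04 ± 0.13 and -0.05 ± 0.13, and those of Ifit2 (0.13 ± 0.12 and 0.19 ± 0.12) and Ifit3b (-0.12 ± 0.18 and -0.04 ± 0.18) did not pass either.

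Members of the OAS family changed in opposite directions with hypoxia. These enzymes make the messenger 2-5A, which activates RNase L to degrade RNA, except for the OAS-like protein Oasl1, which lacks this activity and represses translation of Irf7 messenger RNA. Oas3 (chr5:120753098-120777661, minus strand) was at 1.64, 2.24, 3.71, 6.37 and 4.57 CPM in normoxia with vehicle and at 1.56 to 3.43 CPM (median 1.89) in normoxia with ABT-263. In hypoxia it was at 0.896 to 1.71 CPM (median 1.45) with vehicle and at 1.01, 1.65, 1.55, 0.989 and 0.907 CPM with ABT-263. The control group spread by 3.88-fold from its lowest to its highest library, and its lowest library lay inside the hypoxia range.
Oas3 fell by 1.41 on the log2 scale with hypoxia in vehicle (SE 0.28, adjusted p = 0.000753) and by 0.77 in ABT-263 (SE 0.31, adjusted p = 0.0495). The call in ABT-263 lay just under the threshold and was kept in only 8 of the 31 alternative settings, with adjusted p up to 0.227. Oas2, the gene 3244 bases away on the same strand, was at 4.72, 7.18, 6.49, 12.7 and 7.41 CPM in the control group, 3.79 to 11.2 (median 5.48) in normoxia with ABT-263, 7.12 to 14.5 (median 9.79) in hypoxia with vehicle, and 8.72, 16.2, 10.2, 8.83 and 8.41 CPM in hypoxia with ABT-263. The ratio of Oas2 to Oas3 in CPM ran from 1.62 to 4.19 over the normoxia libraries and from 4.17 to 11.6 over the hypoxia libraries, and the oxygen groups did not overlap within either treatment. With vehicle the ratio was 1.62 to 3.20 in normoxia and 4.17 to 11.6 in hypoxia, and with ABT-263 it was 2.23 to 4.19 and 6.58 to 9.84. This pair too was chosen after its values were seen. Oas2 did not pass in either single comparison (0.42 ± 0.28 and 0.67 ± 0.28) but rose with hypoxia averaged over treatments, by 0.54 ± 0.20 (adjusted p = 0.0284). In that averaged comparison 12 members passed, 8 higher and 4 lower (30.8%), against 49% of all genes (23% higher and 26% lower). Without replicates 2 and 6 of normoxia with ABT-263 the count was 16, of which 12 were higher. In the main fit the higher calls of the averaged comparison were Oas2, Rsad2, Psmb9, Iigp1, Cxcl9, Isg15, Xaf1 and Stat2. The lower calls were Oas3, Oasl1, Ifitm3 and Parp14. Oas2 was kept in 25 of 30 alternative settings, and each of the others in all 30.
Oasl1 was at 3.01, 3.52, 4.56, 4.55 and 4.24 CPM in the control group and at 2.24 to 4.75 CPM (median 2.86) in hypoxia with vehicle, a log2 difference of -0.33 ± 0.20 that did not pass. With ABT-263 it ran from 2.69 to 5.27 CPM (median 3.88) in normoxia and was at 2.59, 3.04, 2.13, 2.61 and 1.48 CPM in hypoxia, and fell by 0.75 (SE 0.21, adjusted p = 0.00615). Oas1a (-0.01 ± 0.20 and 0.04 ± 0.20) and Oasl2 (-0.30 ± 0.17 and -0.12 ± 0.17) did not pass.

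Isg15, a ubiquitin-like protein that is joined to other proteins, rose with hypoxia in ABT-263-treated lungs, while Usp18, the protease that removes it and dampens type I receptor signalling, did not pass. Isg15 levels were 14.1, 19.0, 13.9, 26.4 and 21.9 CPM in normoxia with vehicle and 10.3 to 28.1 CPM (median 15.3) in normoxia with ABT-263. Hypoxia gave 18.6 to 26.3 CPM (median 24.3) with vehicle and 22.04, 36.9, 26.6, 21.0 and 22.9 CPM with ABT-263. The groups overlapped through the highest normoxia libraries. The log2 fold change was 0.31 ± 0.21 with vehicle (adjusted p = 0.306) and 0.62 ± 0.21 with ABT-263 (adjusted p = 0.0249), and the latter was kept in 23 of 31 alternative settings. Isg15 also passed as higher with hypoxia averaged over treatments, a call kept in all 30 alternative settings. Usp18 differed by -0.06 ± 0.13 and -0.24 ± 0.13.

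Among the 12 antiviral effectors, Rsad2 rose in both hypoxia comparisons. Its rise was the largest of the set with vehicle. With ABT-263 the rise was not resolved from that of the chemokine Cxcl9 (log2 fold changes of 1.51 ± 0.18 and 1.47 ± 0.39). Rsad2 encodes viperin, a radical SAM enzyme that makes a chain-terminating nucleotide from CTP and so halts viral RNA synthesis. It was at 8.97, 11.2, 9.63, 16.0 and 13.8 CPM in normoxia with vehicle and at 8.55 to 16.7 CPM (median 9.64) in normoxia with ABT-263. In hypoxia it was at 22.5 to 37.1 CPM (median 28.6) with vehicle and at 22.4, 34.7, 27.8, 29.5 and 38.5 CPM with ABT-263. Every hypoxia library lay above every normoxia library, and Rsad2 was the only member whose groups did not overlap with vehicle (7.02% of all genes did so in the higher and 6.95% in the lower direction).
Rsad2 rose 2.41-fold with vehicle (log2 1.27 ± 0.18, adjusted p = 1.79e-05) and 2.85-fold with ABT-263 (log2 1.51 ± 0.18, adjusted p = 8.77e-07). The call was kept in all 31 alternative settings in both comparisons.

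Cmpk2, the neighbour of Rsad2, encodes a mitochondrial nucleotide kinase that can supply CTP precursors, and the genes lie on opposite strands of chromosome 12 with starts 12752 bases apart. Cmpk2 was at 34.0, 40.9, 30.7, 37.7 and 40.2 CPM in normoxia with vehicle and at 29.5 to 40.4 CPM (median 35.9) in normoxia with ABT-263. Its hypoxia range was 25.5 to 45.4 CPM (median 37.9) with vehicle, and the ABT-263 libraries were at 38.4, 40.5, 31.5, 30.5 and 31.8 CPM. All groups overlapped, with log2 differences of 0.01 ± 0.11 and -0.04 ± 0.12. The ratio of Rsad2 to Cmpk2 in CPM ran from 0.253 to 0.425 over the normoxia libraries and from 0.583 to 1.21 over the hypoxia libraries, without overlap, a description of a pair chosen after its values were seen. The 250 bases before the Rsad2 start and 239 bases before the first annotated Cmpk2 exon are shown to compare the neighbours.
Rsad2, chr12:26456453-26456702, minus strand: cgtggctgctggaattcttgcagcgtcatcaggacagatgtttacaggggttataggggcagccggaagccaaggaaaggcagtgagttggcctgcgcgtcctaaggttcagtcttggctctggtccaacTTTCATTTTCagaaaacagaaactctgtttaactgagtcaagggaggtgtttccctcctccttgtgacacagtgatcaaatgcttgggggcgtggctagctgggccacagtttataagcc
Cmpk2, chr12:26468965-26469203, plus strand: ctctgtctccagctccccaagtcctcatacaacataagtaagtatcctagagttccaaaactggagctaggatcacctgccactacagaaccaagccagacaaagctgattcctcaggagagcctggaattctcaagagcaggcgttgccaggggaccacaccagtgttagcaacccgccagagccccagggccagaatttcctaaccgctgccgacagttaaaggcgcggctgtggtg
Their orientation is that of each gene. The Rsad2 window held 1 ISRE match (capitals), 120 to 111 bases before the start, and 1 GCGTG, 31 to 27 bases before it. The Cmpk2 window held no match to the ISRE, GAS, ACGTG or GCGTG letters.

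**Figure D2:**
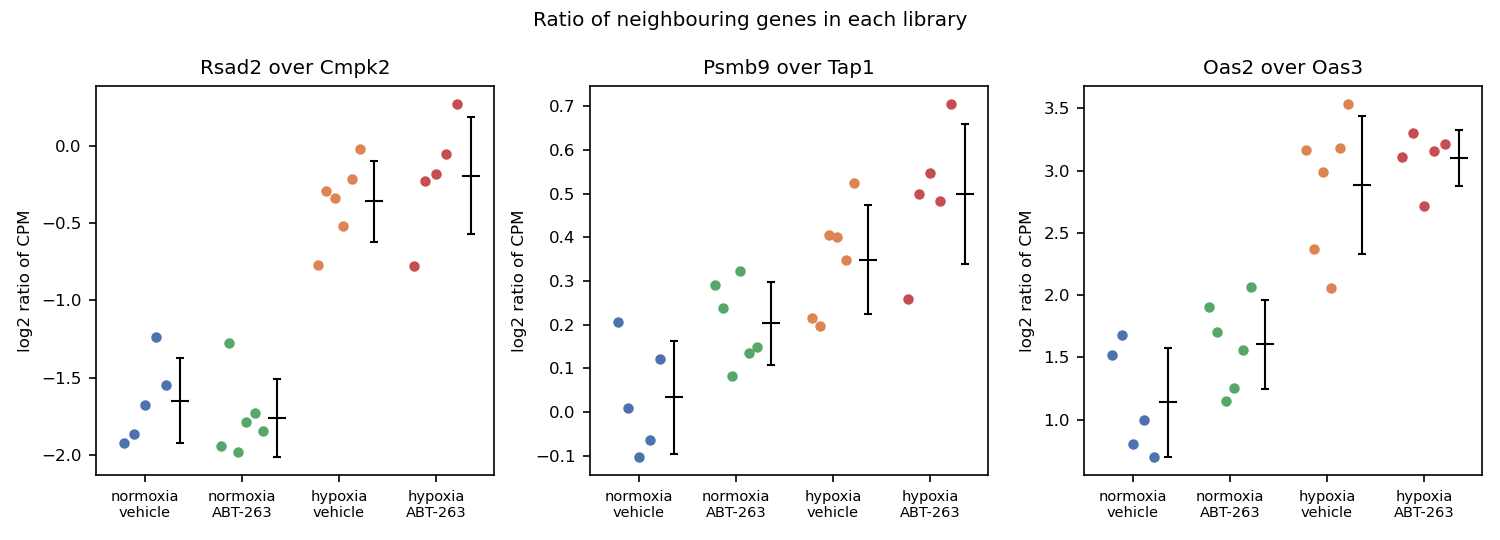
Log2 ratio of CPM between neighbouring genes in each library (points) of the 4 groups, with the mean and SD beside them. Rsad2 over Cmpk2 separates all normoxia (up to 0.425 before the log) from all hypoxia libraries (from 0.583), Oas2 over Oas3 separates the oxygen groups within each treatment but not across treatments (4.19 against 4.17), and Psmb9 over Tap1 overlaps between the oxygen groups of each treatment.

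The other effectors that passed with vehicle fell. Ifitm3 was at 289, 334, 249.6, 349 and 361 CPM in normoxia with vehicle and at 197 to 279.7 CPM (median 238) in hypoxia with vehicle, overlapping through 1 control library, and fell by 0.40 on the log2 scale (SE 0.11, adjusted p = 0.00757). With ABT-263 it was at 273 to 326 CPM (median 292) in normoxia and at 247, 306, 201, 304 and 257 CPM in hypoxia, a log2 difference of -0.18 that did not pass. Parp14, an ADP-ribosyltransferase, was at 58.0, 75.4, 73.6, 79.0 and 81.4 CPM in the control group and 50.1 to 64.2 CPM (median 56.0) in hypoxia with vehicle, and fell by 0.38 (SE 0.09, adjusted p = 0.00208). Only the lowest control library lay inside the hypoxia range. With ABT-263, Parp14 was at 55.9 to 72.9 CPM (median 67.0) in normoxia and at 66.1, 67.9, 60.1, 64.6 and 64.1 CPM in hypoxia, a difference of -0.04.
Bst2 was at 106, 119.6, 90.1, 118 and 114 CPM in the control group and 79.1 to 106 CPM (median 84.1) in hypoxia with vehicle, and fell by 0.31 (SE 0.09, adjusted p = 0.0085). In ABT-263 libraries it ran from 88.0 to 107 CPM (median 99.6) in normoxia and was at 106, 109, 110.3, 87.1 and 91.2 CPM in hypoxia, a difference of 0.03. Trim30a, a TRIM protein that limits Toll-like receptor signalling, was at 35.3, 38.5, 38.5, 49.3 and 39.5 CPM in the control group and 29.5 to 38.2 CPM (median 32.9) in hypoxia with vehicle, and fell by 0.26 (SE 0.09, adjusted p = 0.0261). Trim30a with ABT-263 ran from 28.1 to 40.4 CPM (median 34.6) in normoxia and was at 34.4, 35.9, 32.0, 36.2 and 33.0 CPM in hypoxia. Ifitm3, Parp14, Bst2 and Trim30a thus fell with vehicle, and none of them passed with ABT-263. Ifitm3 and Parp14 also passed as lower with hypoxia averaged over treatments, in the main fit and in all 30 alternative settings.

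Xaf1, a pro-apoptotic antagonist of the inhibitor XIAP, was the second effector that rose with hypoxia in ABT-263-treated lungs. Xaf1 levels were 21.9 to 32.6 CPM (median 25.2) in normoxia with ABT-263 and 35.0, 40.8, 35.0, 30.3 and 33.7 CPM in hypoxia with ABT-263, and only the highest normoxia library reached into the hypoxia range. With vehicle, Xaf1 was at 27.3, 30.5, 28.3, 35.1 and 32.2 CPM in normoxia and at 29.2 to 39.02 CPM (median 32.0) in hypoxia. The log2 fold change was 0.42 ± 0.10 with ABT-263 (adjusted p = 0.00115) and 0.09 with vehicle. The remaining effectors did not pass in either comparison. Mx1 and Mx2, of a family of dynamin-like GTPases, differed by -0.44 ± 0.32 and -0.19 ± 0.21 with vehicle. Ifi27l2a differed by 0.32 ± 0.32, Ifi44 by -0.21 ± 0.18 and the receptor chaperone Rtp4 by -0.10 ± 0.14 in the same comparison.
Mx2 was at 3.28, 3.07, 4.35, 5.61 and 3.57 CPM in the control group, 1.97 to 3.83 (median 2.88) in normoxia with ABT-263, 2.42 to 4.22 (median 3.48) in hypoxia with vehicle, and 2.52, 5.30, 2.94, 2.68 and 2.89 CPM in hypoxia with ABT-263. The highest library was replicate 4 of the control group, replicate 2 of normoxia with ABT-263 and replicate 2 of hypoxia with ABT-263.

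**Figure D3:**
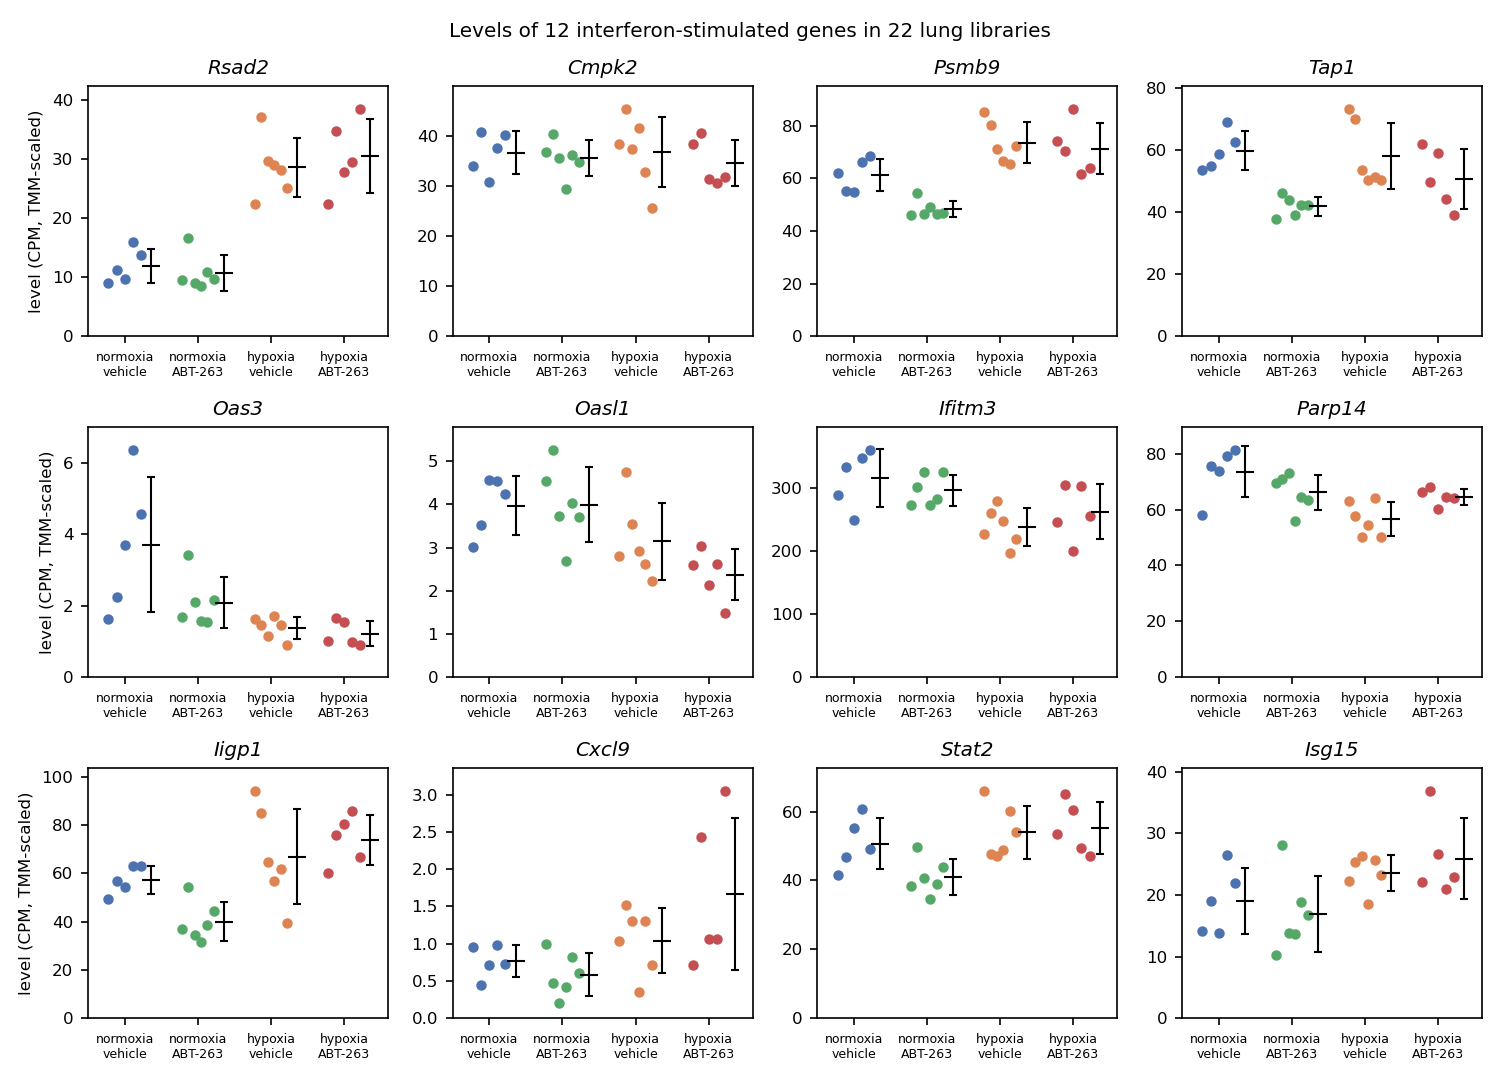
CPM (TMM-scaled, vertical axis from 0) of 12 members in each of the 22 libraries, by group, with the mean and SD beside the points. Rsad2 lies between 8.55 and 16.7 CPM in normoxia and between 22.4 and 38.5 CPM in hypoxia, Cmpk2 overlaps in all groups, and Iigp1, Psmb9 and Tap1 are lowest in normoxia with ABT-263.

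Of the 5 GTPases, which disrupt the vacuoles of intracellular pathogens and respond mainly to interferon gamma, Iigp1 and Gbp3 rose with hypoxia in ABT-263 and none passed with vehicle. Iigp1 was at 49.2, 56.8, 54.1, 63.0 and 62.8 CPM in normoxia with vehicle and at 31.6 to 54.2 CPM (median 37.7) in normoxia with ABT-263. In hypoxia it was at 39.2 to 94.2 CPM (median 63.3) with vehicle and at 60.2, 76.0, 80.3, 85.8 and 66.8 CPM with ABT-263. With ABT-263 the oxygen groups did not overlap, and the hypoxia vehicle group enclosed the whole control group. The log2 fold change of Iigp1 was 0.88 ± 0.17 with ABT-263 (adjusted p = 0.000338) and 0.23 ± 0.17 with vehicle.
Gbp3 ran from 33.5 to 46.9 CPM (median 38.2) in normoxia with ABT-263 and was at 53.9, 60.5, 42.7, 40.9 and 49.3 CPM in hypoxia with ABT-263, and rose by 0.35 ± 0.12 (adjusted p = 0.0278), a call kept in 25 of 31 alternative settings. With vehicle it was at 40.9, 45.5, 46.9, 54.9 and 53.6 CPM in normoxia and at 38.1 to 63.8 CPM (median 46.9) in hypoxia, a difference of -0.00. Igtp was at 23.7, 29.3, 26.8, 35.6 and 34.9 CPM in the control group, 21.5 to 27.6 (median 22.8) in normoxia with ABT-263, 22.6 to 51.8 (median 30.5) in hypoxia with vehicle, and 27.5, 30.6, 35.1, 30.9 and 26.2 CPM in hypoxia with ABT-263. It did not pass (0.17 ± 0.17 and 0.33 ± 0.17). Gbp2 (-0.27 ± 0.11 and -0.01 ± 0.11) and Irgm1 (-0.05 ± 0.13 and -0.12 ± 0.13) did not pass either.

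The antigen-processing genes lie together on chromosome 17 in the class II region of the major histocompatibility complex. Psmb8 and Psmb9 encode immunoproteasome subunits that cut peptides for class I presentation, and Tap1 a subunit of the transporter that carries them into the endoplasmic reticulum. Psmb9 (chr17:34181987-34187764, minus strand) was at 61.9, 55.2, 54.6, 66.0 and 68.3 CPM in normoxia with vehicle and at 46.2 to 54.5 CPM (median 46.7) in normoxia with ABT-263. In hypoxia it was at 65.3 to 85.2 CPM (median 71.8) with vehicle and at 74.1, 70.2, 86.4, 61.7 and 63.9 CPM with ABT-263. The oxygen groups overlapped with vehicle and were separate with ABT-263. Psmb9 rose by 0.26 ± 0.09 with vehicle (adjusted p = 0.0268, kept in 25 of 31 alternative settings) and by 0.56 ± 0.09 with ABT-263 (adjusted p = 2.14e-05, kept in all 31).
Psmb8 (chr17:34197721-34201454, plus strand) was at 102, 109, 87.7, 115 and 103 CPM in the control group and at 88.2 to 107 CPM (median 97.5) in hypoxia with vehicle, a difference of -0.09 ± 0.08. With ABT-263 it ran from 76.8 to 95.02 CPM (median 84.8) in normoxia and was at 109, 114, 124, 98.2 and 97.3 CPM in hypoxia, without overlap, and rose by 0.35 ± 0.08 (adjusted p = 0.000891). With Rsad2, Iigp1 and Psmb9, Psmb8 made up the 4 members whose oxygen groups did not overlap with ABT-263, all of them higher in hypoxia (8.52% of all genes did so in that direction). Of the exon bases of Psmb8, 14.7% overlap Gm20496 on the other strand.
Tap1 (chr17:34187553-34197225, plus strand) was at 53.7, 54.8, 58.7, 69.0 and 62.8 CPM in normoxia with vehicle and at 37.8 to 46.2 CPM (median 42.4) in normoxia with ABT-263. In hypoxia it was at 50.3 to 73.4 CPM (median 52.5) with vehicle and at 61.9, 49.7, 59.1, 44.2 and 39.2 CPM with ABT-263. The hypoxia differences of -0.04 ± 0.11 and 0.28 ± 0.12 did not pass (adjusted p = 0.0615 for the latter). Psmb9 and Tap1 start 211 bases apart on opposite strands and their annotated exons overlap by 212 bases, and the strand setting of the counting was not given in the sources used here. Their CPM ratio (Psmb9 over Tap1) had medians of 1.01, 1.14, 1.30 and 1.41 in normoxia with vehicle, normoxia with ABT-263, hypoxia with vehicle and hypoxia with ABT-263. The ranges of the oxygen groups overlapped within each treatment, and those of normoxia with vehicle (0.931 to 1.15) and hypoxia with ABT-263 (1.20 to 1.63) did not.

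The chemokines Cxcl9 and Cxcl10 bind CXCR3 on T and NK cells, and Cxcl9 is the one that depends chiefly on interferon gamma. Cxcl9 was at 0.958, 0.449, 0.713, 0.985 and 0.728 CPM in normoxia with vehicle and at 0.203 to 0.996 CPM (median 0.542) in normoxia with ABT-263. In hypoxia it was at 0.356 to 1.52 CPM (median 1.17) with vehicle and at 0.720, 2.43, 1.06, 1.06 and 3.05 CPM with ABT-263. The groups overlapped, and replicates 2 and 5 held the highest levels of hypoxia with ABT-263. Cxcl9 rose with hypoxia by 1.47 ± 0.39 with ABT-263 (adjusted p = 0.00465) and differed by 0.45 ± 0.40 with vehicle, at counts that fell to 3 in the lowest library.
Cxcl10 was at 1.44, 1.05, 1.28, 2.80 and 1.79 CPM in the control group and at 0.809 to 1.63 CPM (median 0.967) in normoxia with ABT-263. Its hypoxia range was 0.828 to 2.84 CPM (median 1.20) with vehicle, and the ABT-263 libraries were at 1.22, 1.56, 0.736, 0.918 and 2.31 CPM. Neither hypoxia difference passed (-0.07 ± 0.33 and 0.28 ± 0.36), and all groups overlapped.

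With ABT-263 in normoxia 1 member passed, Tap1, which fell by 0.51 on the log2 scale (SE 0.11, adjusted p = 0.0391), or 1.42-fold. This was 2.56% of members, against 0.535% of all genes. The call was lost in 13 of 31 alternative settings, including without each of several single libraries and without the 3 libraries with conflicting labels, and without replicates 2 and 6 of normoxia with ABT-263 the count was 2. The estimates of 37 of the 39 members were negative, with a median of -0.22, whereas 7707 of 16638 genes were negative, with a median of 0.01. The members' median was -0.33 without replicate 2 of normoxia with ABT-263 and -0.34 without replicates 2 and 6. It was weaker, at -0.16 with 35 negative, without replicate 4 of normoxia with vehicle, and -0.15 with treatment read from the tag. Members at an unadjusted p under 0.05 (edgeR) numbered 13 in the main fit, 8 without that vehicle library and 6 with the tag. Levels of Tap1, Psmb9 and Gbp2 were lower in every ABT-263 library than in every vehicle library of normoxia, although Psmb9 was separated by only 54.5 and 54.6 CPM, and 1.05% of all genes did so in that direction. Psmb9 (-0.34 ± 0.09, adjusted p = 0.0763), Psmb8 (-0.28 ± 0.08, adjusted p = 0.0945), Oas3 (-0.83 ± 0.27, adjusted p = 0.161), Iigp1 (-0.52 ± 0.17, adjusted p = 0.169) and Stat2 (-0.30 ± 0.11, adjusted p = 0.212) came next and did not pass.

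In hypoxia, no member passed for ABT-263 (edgeR), against 0.301% of all genes, with 3 members at an unadjusted p under 0.05 and 0 called by DESeq2 or limma-voom. The median over members was -0.00, with 19 positive and 20 negative estimates, and without replicate 2 of hypoxia with ABT-263 it was -0.14 with 29 negative. The smallest p-values belonged to Bst2 (0.19 ± 0.09, adjusted p = 0.302), Parp14 (0.19 ± 0.09, adjusted p = 0.315) and Psmb8 (0.17 ± 0.08, adjusted p = 0.325). Averaged over oxygen conditions, Tap1 fell by 0.35 with ABT-263 (SE 0.08, adjusted p = 0.0226), the only member called of 39, against 2.54% of all genes (1.23% higher and 1.31% lower). No member's treatment groups were separate in hypoxia, where 1.26% of all genes were separate in the higher and 0.727% in the lower direction.

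Whether the hypoxia difference depended on treatment was tested as an interaction, positive where hypoxia raised a gene more with ABT-263 than with vehicle. The estimate was positive for 34 of 39 members, with a median of 0.25 against -0.02 over all genes. The median was 0.15 with 10 negative estimates without replicate 2 of hypoxia with ABT-263, and 0.17 with 9 negative without replicate 4 of normoxia with vehicle. No member passed by edgeR, where 9 had an unadjusted p under 0.05, and 0% of all genes passed. DESeq2 called 1 member and limma-voom 0. The smallest p-values were those of Psmb8 (0.45 ± 0.11, adjusted p = 0.286), Irf9 (0.41 ± 0.14, adjusted p = 0.369) and Bst2 (0.34 ± 0.12, adjusted p = 0.378). Hence genes that passed in only 1 of the hypoxia comparisons were not shown to differ between treatments. The hypoxia comparison with ABT-263 and the ABT-263 comparison in normoxia share the normoxia ABT-263 libraries, in which Tap1, Psmb8, Psmb9, Iigp1, Stat2, Irf9 and Xaf1 each had their lowest group mean.

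The interferon genes themselves were near or below the limit of these libraries. Of 21 ligand genes, 16 were at 0 in every library, which allows up to 3 counts, or 0.191 to 0.261 CPM, per library, and none had enough counts to be tested. Interferon gamma (Ifng) had 1 to 8 counts per library, with 0.441 ± 0.0907 CPM (SD, n = 5) in normoxia with vehicle, 0.291 ± 0.110 (n = 6) in normoxia with ABT-263, 0.209 ± 0.108 (n = 6) in hypoxia with vehicle and 0.178 ± 0.102 (n = 5) in hypoxia with ABT-263. Interferon beta (Ifnb1) reached at most 1 count in any library.
Of the 6 receptor genes, Ifngr1, the ligand-binding chain for interferon gamma, rose with hypoxia by 0.58 ± 0.07 with vehicle (adjusted p = 3.01e-06) and 0.34 ± 0.07 with ABT-263 (adjusted p = 0.000574). The type I receptor chains Ifnar1 (-0.18 ± 0.06, adjusted p = 0.0249) and Ifnar2 (-0.30 ± 0.07, adjusted p = 0.00262) fell with hypoxia in vehicle. Neither passed with ABT-263, where Ifnlr1, the receptor chain for lambda interferons, fell by 0.39 (SE 0.09, adjusted p = 0.000868).
Among 16 JAK-STAT genes and regulators, 0 were higher and 9 lower with hypoxia in vehicle, and 1 was higher and 8 lower in ABT-263. Of all genes tested, 13.5% were higher and 12.8% lower with hypoxia in vehicle, and 17.9% and 21.3% in ABT-263. In vehicle, Irf5, a factor downstream of Toll-like receptors, fell by 0.77, the phosphatase Ptpn6 by 0.53, the repressor Irf2 by 0.48 and Jak1 by 0.37. Irf1, a transcription factor of the interferon response, fell with vehicle (-0.29 ± 0.06, adjusted p = 0.0018) without passing in ABT-263 (0.07 ± 0.06). Of 16 genes of nucleic-acid sensing upstream of interferon, 1 was higher and 6 lower with hypoxia in vehicle, with Tlr9 at -1.25, Mavs at -0.34, Aim2 at -0.44 and Tlr4 at 0.38.

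Related genes outside the set were counted for comparison, beside shares over all genes of 13.5% higher and 12.8% lower with hypoxia in vehicle and of 17.9% and 21.3% in ABT-263. Of 45 other type I targets tested, 0 were higher and 10 lower (22.2%) with hypoxia in vehicle, led by Shisa5 (-0.54), Ifi207 (-0.88), Sp100 (-0.35) and Adar (-0.33), and 3 were higher and 3 lower in ABT-263. Of 20 other interferon-gamma targets tested, 3 were higher and 0 lower in vehicle, namely Gbp4 (0.96), Ciita (0.66), the activator of class II genes, and Nos2 (0.80), inducible nitric oxide synthase. With ABT-263, 8 of the 20 were higher and 1 lower, with a median of 0.53. Of 17 other class I presentation genes, 1 was higher and 3 lower in vehicle, with Tapbp at -0.33, Tap2 at -0.35, H2-D1 at -0.27 and Psme2 at 0.27, and 5 were higher and 3 lower in ABT-263, led by H2-Q7 (0.89).

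Markers of immune cells that respond to or make interferon, and of other lung cells, were counted in the same comparisons. The shares over all genes were 13.5% higher and 12.8% lower with hypoxia in vehicle, and 17.9% and 21.3% in ABT-263. With hypoxia in vehicle, 8 of 11 T-cell, 8 of 10 NK-cell and 8 of 8 B-cell markers were lower. So were 7 of 10 monocyte, 2 of 8 neutrophil and 3 of 7 plasmacytoid dendritic-cell markers, and no marker of these lists was higher. Of 10 alveolar-macrophage markers, 5 were higher and 1 lower. Among 8 endothelial markers 5 were lower and 1 higher, and 4 of 8 epithelial markers were lower. With hypoxia in ABT-263, 5 of 11 T-cell, 6 of 10 NK-cell, 8 of 8 B-cell and 7 of 10 monocyte markers were lower. So were 3 of 8 neutrophil, 2 of 7 plasmacytoid dendritic-cell and 5 of 8 epithelial markers, and no marker of these lists was higher. In that comparison 7 of 10 alveolar-macrophage markers were higher and 1 lower, and 3 of 8 endothelial markers were lower and 1 higher. With ABT-263 in normoxia, 4 of 11 T-cell, 3 of 10 NK-cell and 5 of 8 B-cell markers were lower, and with ABT-263 in hypoxia 5 of 8 B-cell markers were. The shares over all genes were 0.108% higher and 0.427% lower with ABT-263 in normoxia, and 0.114% and 0.186% in hypoxia. NK and T cells are sources of interferon gamma. The summed level of the NK-cell list was 129.8 to 193 CPM in normoxia with vehicle, 72.8 to 125 in normoxia with ABT-263, 71.6 to 125 in hypoxia with vehicle and 42.5 to 84.5 in hypoxia with ABT-263. The T-cell list summed to 85.2 to 121, 56.6 to 82.8, 62.6 to 75.5 and 48.0 to 70.0 CPM in the same order. The neutrophil list summed to 185 to 359, 121 to 353, 116 to 240 and 67.0 to 142 CPM. Its highest sums were in replicate 4 of normoxia with vehicle, replicate 2 of both ABT-263 groups and replicate 1 of hypoxia with vehicle. No marker of these lists was at 0 in every library. The part of these cell types in the members' differences was not tested. How specific each marker was to its cell type in these lungs was not tested either.

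Single libraries moved many members at once. Replicate 4 held the highest level of its group for 29 of 39 members in normoxia with vehicle, replicate 2 for 28 in normoxia with ABT-263, and replicate 2 for 25 in hypoxia with ABT-263. In hypoxia with vehicle the highest levels were divided mainly between replicate 2 (16 members) and replicate 1 (14 members). The mean log2 CPM of the 29 factors, sensors, IFIT, OAS, ISG15-system and effector genes was 4.83, 4.69 and 4.80 in the first 3 of these libraries, and 4.04 to 4.59 in the other 19. Replicate 1 of normoxia with vehicle was lowest for 23 members.
The within-group SD on the log2 scale had a median of 0.28 over members and 0.19 over all genes, and was largest for Cxcl9 (0.63), Mx1 (0.55), Cxcl10 (0.55) and Ifi27l2a (0.54). Without replicate 2 of normoxia with ABT-263, or without replicates 2 and 6 together, 14 members passed with hypoxia in ABT-263, and the count ran from 9 to 14 over all single libraries left out.

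**Figure D4:**
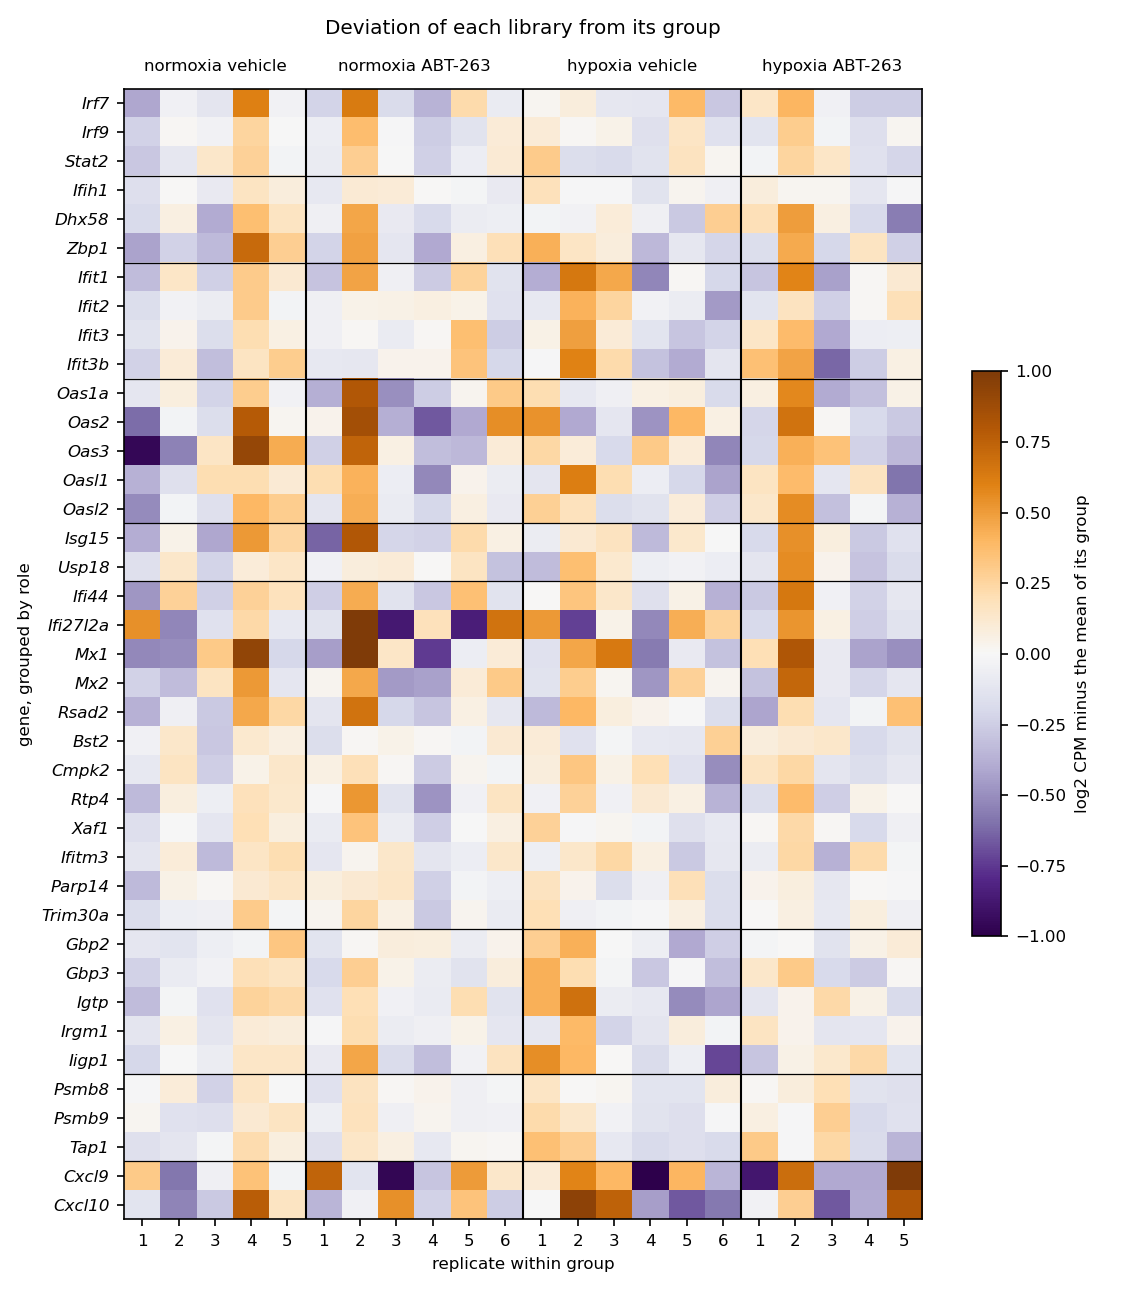
Log2 CPM of each gene in each library minus the mean of its group, for 39 genes (rows, by role) and 22 libraries (columns, by group), with colour ending at -1 and 1. Replicate 4 of normoxia with vehicle and replicate 2 of both ABT-263 groups are above their group mean for most genes.

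**Figure D5:**
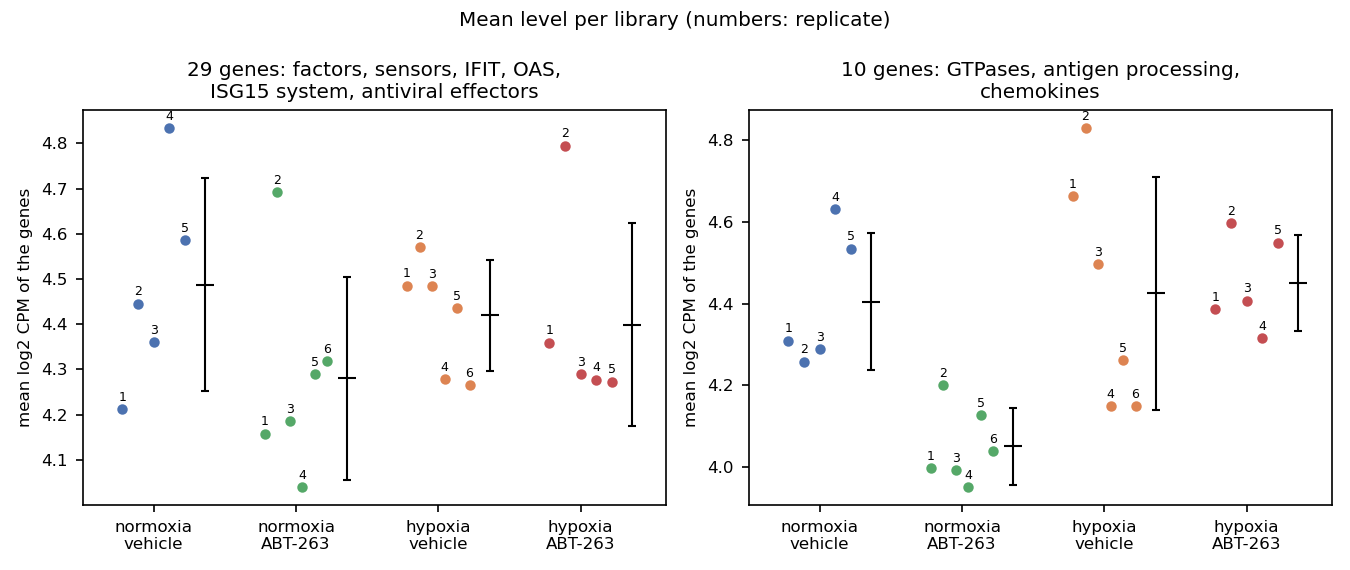
Mean log2 CPM per library of 29 genes (left) and of 10 genes (right: GTPases, antigen processing and chemokines), numbered by replicate, with the group mean and SD. On the left the highest libraries of 3 groups reach 4.83, 4.69 and 4.80, and on the right the 6 normoxia ABT-263 libraries lie between 3.95 and 4.20, below every normoxia vehicle library.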

How the data were processed

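Lung RNA libraries were made with a stranded mRNA kit and sequenced, per the labels' protocols. The deposited table holds expected counts per gene, which the authors made with RSEM. Per the submitters' processing notes, Trimmomatic, STAR and the GRCm38 build were also used, without versions. The annotation and the strand setting of the counting were not given in the sources used here. Reads that match more than 1 gene are shared out in such counts.

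Groups came from the sample titles. The members and gene lists were chosen with earlier results of these data known. Expected counts were rounded, genes were kept by edgeR's filterByExpr (minimum count 10, 16638 genes), TMM factors were applied, and edgeR 4.0.16 (R 4.3.3, limma 3.58.1) gave robust quasi-likelihood F tests in 1 fit of all 4 groups. The Benjamini-Hochberg adjustment covered every gene in the fit, and calls needed an adjusted p under 0.05. Standard errors were obtained as the absolute log2 fold change over the root of the F statistic. Levels are CPM with TMM-scaled totals, and levels per length use exon unions of GENCODE M21, which held 54409 of the 54532 identifiers. Log2 CPM used a prior count of 2. No pair of libraries within a group matched to within counting noise (5.03 to 37.6 as chi-square divided by genes), and each library was treated as 1 replicate. That check cannot show whether the libraries came from separate animals, because libraries from the same animal could also differ by more than counting noise.

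All members are accounted for. Of the genes outside the set that were to be given values, 1 is not reported here. Values per library are given for Stat2, Irf7, Irf9, Isg15, Ifit1, Cxcl9 and Cxcl10 and for up to 6 members with the smallest p in each comparison in which any member passed, full statistics for members that passed, and of each other list up to 4 genes with the smallest p. Cmpk2, Oas2, Oasl1, Gbp3 and some genes outside the set are given further values chosen after they were seen. The edgeR fit was tested on simulated data. Alternatives used RLE factors, DESeq2 1.42.0, library totals alone, limma-voom, no filter on low counts, only the groups compared, treatment read from the tag, no libraries with conflicting labels, each library left out in turn, and, chosen after seeing the data, no normoxia ABT-263 replicates 2 and 6. Motifs were searched in RefSeq promoter windows of GRCm38.p6. Figures were drawn with matplotlib 3.10.9.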

Additional observations from a re-analysis of the deposited data

Results flagged for a closer look

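Some libraries stood far from the others of their group, with a gap to the nearest library above the critical value of Dixon's test. This held for 6 of 156 combinations of member and group (3.85%), all on the high side, and chance gives about 1 in 20. In normoxia with ABT-263, replicate 2 held 16.7 CPM of Rsad2 (others 8.55 to 10.9), 10.8 CPM of Dhx58 (others 6.83 to 7.59) and 54.5 CPM of Psmb9 (others 46.2 to 49.1). In hypoxia with ABT-263, replicate 2 held 15.5 CPM of Ifi44 (others 8.14 to 9.56) and 5.30 CPM of Mx2 (others 2.52 to 2.94). In normoxia with vehicle, replicate 5 held 119 CPM of Gbp2 (others 87.0 to 93.1). Rsad2 of replicate 2 still lay below every hypoxia library.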

How the results depend on the processing

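With hypoxia in vehicle, the number of members called ran from 6 to 7 over single libraries left out. In ABT-263 it ran from 9 (without normoxia ABT-263 replicate 1) to 14 (without normoxia vehicle replicate 4 or normoxia ABT-263 replicate 2), and averaged over treatments from 11 (without normoxia vehicle replicate 1 or hypoxia vehicle replicate 1) to 17 (without hypoxia vehicle replicate 6). For ABT-263 in normoxia, where 1 member passed, the count ran from 0 to 3 over libraries left out, was 3 by DESeq2, 2 without normoxia ABT-263 replicates 2 and 6, and 0 with library totals, without the 3 libraries with conflicting labels and with treatment taken from the tag. The count was likewise 0 without normoxia vehicle replicate 3, 4 or 5, normoxia ABT-263 replicate 1, 3, 4, 5 or 6, hypoxia vehicle replicate 3 or hypoxia ABT-263 replicate 2. For ABT-263 in hypoxia and for the interaction it was 0 without any single library, and DESeq2 called 1 member for the interaction. Averaged over oxygen conditions, ABT-263 gave 0 to 2 (0 without hypoxia ABT-263 replicate 4, 2 without replicate 3), and 0 with treatment read from the tag. The cause of these shifts was not tested, other than that leaving out libraries leaves fewer samples. No called member changed sign under any setting run. No paired analysis was possible because the labels carry no replicate numbers. The median SE of a member was 0.16 on the log2 scale in the comparisons with vehicle, above the 0.11 of all genes. This SE is not a detection limit. Larger differences also failed to pass, such as 0.31 for Isg15 with hypoxia in vehicle.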
